A study of Homo sapiens with 12 samples.

Results

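The 9 genes described here, NF1, RASA1, RASA2, RASA3, RASAL2, DAB2IP, SPRED1, SPRED2 and LZTR1, encode proteins that restrain Ras, and they were followed through a genome-wide CRISPR knockout screen for lapatinib resistance in 2 HER2-amplified cell lines. They were chosen by name, as every entry of the single-guide RNA (sgRNA) count table whose gene column held one of the 9 symbols. Each gene had 6 sgRNAs, 54 in all, among 123411 entries for 20915 gene names and 2000 control guides that carry no gene name. All 54 passed the filter on low counts in every comparison. The count table identified an sgRNA by its library number and gene only, so its sequence and cut site were not analysed here.

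The cells were OE19 and N87, established lines that the labels call gastric cancer and that carry amplified HER2, the receptor tyrosine kinase that lapatinib inhibits. Both had been transduced with the GeCKO v2 lentiviral library, which carries Cas9 and a single guide per virus, at a multiplicity of infection of 0.3, and selected with puromycin for 7 days. The 6 groups were OE19 treated with 1 µM lapatinib for 14 days, OE19 with DMSO vehicle for 14 days, OE19 at baseline (harvested after puromycin selection), N87 treated with 0.5 µM lapatinib for 14 days, N87 with DMSO vehicle for 14 days, and N87 at baseline. Each group had 2 libraries, from separate infections by the study's methods. Each condition is a pool of cells in which a guide's read count follows the number of cells that carry it, so more growth and less death of those cells cannot be told apart.

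Ras is a small GTPase that is active with GTP bound and inactive after the GTP is hydrolysed, and active Ras drives the RAF, MEK and ERK kinases downstream of receptors such as HER2. GTPase-activating proteins (RasGAPs) speed that hydrolysis: neurofibromin, the product of NF1, is the best known, and RASA1, RASA2, RASA3, RASAL2 and DAB2IP encode others. SPRED1 and SPRED2 bring neurofibromin to the membrane, and LZTR1 is the substrate adaptor of a ubiquitin ligase that marks Ras-family proteins for degradation. Loss of any of these genes can leave Ras-family proteins more active, and inherited loss of NF1, SPRED1 or LZTR1 underlies developmental disorders of the Ras pathway.

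The libraries held 13105805 to 33743599 reads, the 2 lowest being the OE19 lapatinib pair (13105805 and 16378926). Read counts were divided by a scaling factor for each library (median of ratios), and these normalized counts are the levels given below. Each sgRNA was tested with edgeR's quasi-likelihood test, and each gene with a rank aggregation of its sgRNAs' p-values, both adjusted by Benjamini-Hochberg over the whole table with a threshold of 0.05. Results at an unadjusted p under 0.05 were counted for the genes described here only, without a share over the whole table. Control guides showed how far guides with no gene assigned moved. Between their 5th and 95th percentiles the log2 fold change of lapatinib over vehicle ran over -0.80 to 0.71 in OE19, where 2.21% of them were called higher and 0% lower, and over -1.65 to 1.81 in N87, where 36.6% were called higher and 15.7% lower. A called sgRNA in N87 was therefore common among guides of any kind. With 2 libraries against 2, an exact permutation test of a single sgRNA cannot go below p = 0.333, so single sgRNAs were tested only through the fit across the table.

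NF1 sgRNAs were strongly enriched in lapatinib-treated OE19 cells. Of the 6 NF1 sgRNAs, 4 rose 7.19- to 12.4-fold over vehicle, while the other 2 stayed near the vehicle level. NF1 was the 1 gene of the 9 that passed the gene test there (adjusted p = 0.00154 by rank aggregation of edgeR p-values), and its 6 guides had a median of 2.97 ± 1.77 on the log2 scale (SD over guides). In that test 0.0957% of all genes were enriched. NF1 was also a gene that the study singled out from these same libraries, so its enrichment here is not independent evidence. The paper also tested NF1 outside the screen, and reports resistance to lapatinib after its loss in both lines.

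The 4 enriched NF1 guides came from both half-libraries. HGLibB_32714 had 3795 and 2009 normalized counts in the 2 OE19 lapatinib libraries, against 236 and 229 with vehicle. HGLibB_32715 had 3454 and 2230 with lapatinib, against 290 and 248 with vehicle. Both guides stood far above their vehicle level in each treated library. HGLibA_40045 had 3666 and 1910 with lapatinib, against 346 and 284 with vehicle. HGLibA_40046 had 2286 and 813 with lapatinib, against 233 and 196 with vehicle. For all 4, both treated libraries stood above both vehicle libraries, and replicate 1 of the lapatinib pair was the higher one. Their log2 fold changes were 3.62 ± 0.55, 3.38 ± 0.53, 3.12 ± 0.54 and 2.82 ± 0.48 in that order, with edgeR adjusted p from 0.00687 to 0.0113. For single guides, here and below, the ± value is the SE implied by the F statistic of the edgeR test.

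The other 2 NF1 guides did not follow. HGLibA_40047 had 194 and 318 normalized counts in OE19 with lapatinib, against 303 and 271 with vehicle, a log2 fold change of -0.16 ± 0.28 (edgeR adjusted p = 0.823). HGLibB_32716 had 437 and 309 with lapatinib, against 422 and 395 with vehicle, a log2 fold change of -0.16 ± 0.26 (edgeR adjusted p = 0.812). For both, the treated and vehicle libraries overlapped, so guides to the same gene split into 4 that rose and 2 with no difference beyond their error. How well each guide cut its site was not tested.

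**Figure D1:**
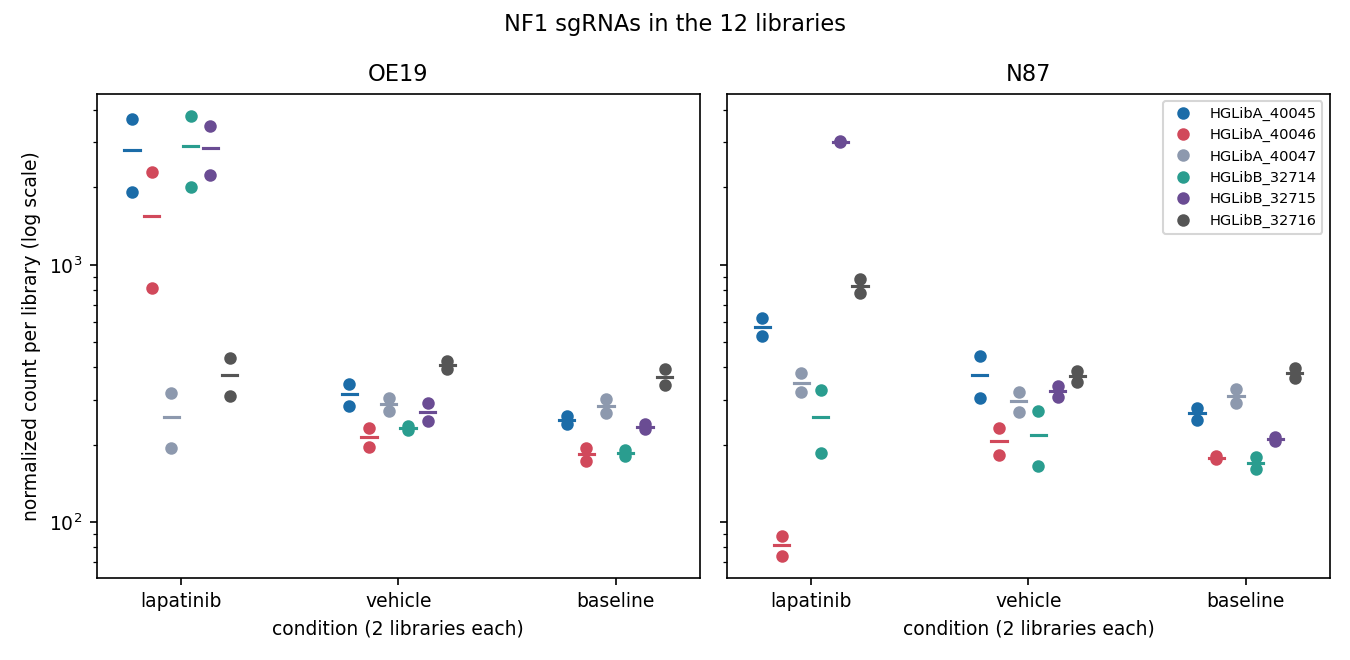
Normalized count (log axis) of each of the 6 NF1 sgRNAs in the 12 libraries, by condition, in OE19 (left) and N87 (right); points are the 2 libraries of a condition and short bars their mean. In OE19 4 guides stand at 813 to 3795 with lapatinib and at 346 or less with vehicle; in N87 HGLibB_32715 alone passes 2000.

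The gain of NF1 guides in OE19 was seen against both other conditions. In lapatinib-treated over baseline cells NF1 had a median of 3.26 on the log2 scale and passed the gene test (edgeR, rank aggregation, adjusted p = 0.000589); 0.124% of all genes were enriched there. The baseline levels of the 4 guides lay between 173 and 258 normalized counts, and for each guide both were below its vehicle libraries. None of the 54 member sgRNAs passed singly in this comparison by edgeR, in which 0.000817% of all sgRNAs did. At an unadjusted p under 0.05, 17 were higher and 1 lower, a count not made over all sgRNAs. DESeq2 called 11 of the 54 higher and 0 lower, 4 of them NF1's. Over all 122367 sgRNAs DESeq2 called 7248 higher and 1925 lower. The comparisons with vehicle and with baseline share the treated libraries.

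The NF1 call in OE19 against vehicle was lost when either vehicle library was left out, and none of its 6 guides was then called. Against baseline the call was lost when either baseline library was left out. Each such fit left 1 library in the reference group, and fewer genes were enriched over the whole table as well. The NF1 median against vehicle was 3.11 without vehicle replicate 1 and 2.85 without vehicle replicate 2. It was 2.26 without lapatinib replicate 1 and 3.46 without lapatinib replicate 2, with the call kept in both. Those fits likewise left 1 library in the treated group.

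In N87 the NF1 guides moved apart from each other. HGLibB_32715 had 2990.0 and 3021 normalized counts with lapatinib, against 308 and 337 with vehicle, a 9.29-fold rise (log2 fold change 3.17 ± 0.25, edgeR adjusted p = 1.08e-07). HGLibB_32716, which had not changed in OE19, had 880 and 776 with lapatinib, against 388 and 351 with vehicle, a 2.23-fold rise. HGLibA_40046, which had risen in OE19, fell to 74.2 and 88.9 with lapatinib, against 182 and 233 with vehicle. So only HGLibB_32715 was above the control guides' 95th percentile in both lines.

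HGLibA_40045 had 527 and 622 normalized counts in N87 with lapatinib, against 303 and 443 with vehicle, and was called higher at 1.54-fold. HGLibB_32714 had 186 and 327 with lapatinib, against 166 and 271 with vehicle, and HGLibA_40047 had 378 and 320 with lapatinib, against 322 and 269 with vehicle; for these 2 guides the groups overlapped. As a gene NF1 had a median of 0.38 on the log2 scale in N87, with adjusted p = 0.993 by rank aggregation of edgeR p-values. That median was -0.14 when libraries were scaled to total counts, so its sign is not settled.

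RASA2, a RasGAP of the GAP1 family, showed the reverse distribution between the lines. It was picked for description after its values were seen, as were the single DAB2IP and SPRED1 guides below. In N87, where 31.2% of all sgRNAs were called higher, 5 of its 6 rose with lapatinib, from 3.61- to 11.4-fold. In OE19 none of them passed in either direction. It had the highest median of the 9 genes in N87, a log2 fold change of 1.97, but its adjusted p was 0.912 by rank aggregation of edgeR p-values. The gene test gave no call to any of the 9 in N87, in which 0.0144% of all genes passed in either direction. Rank aggregation of DESeq2 p-values also gave 0 calls among the 9. At an unadjusted p under 0.05 RASA2 and SPRED1 were enriched and RASAL2 depleted, but the share of all genes under it was not counted.

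HGLibA_48588 to RASA2 had 1592 and 1763 normalized counts in N87 with lapatinib, against 151 and 140.2 with vehicle (log2 fold change 3.47 ± 0.23, edgeR adjusted p = 3.28e-08). HGLibA_48586 had 1673 and 1186 with lapatinib, against 281 and 391 with vehicle. HGLibB_41248 had 1416 and 1069 with lapatinib, against 311 and 376 with vehicle. For these guides no vehicle library came near a treated one. HGLibB_41247 had 666 and 770 with lapatinib, against 192 and 164 with vehicle, and HGLibB_41249 had 378 and 312 with lapatinib, against 96.5 and 72.6 with vehicle. In all 5 both treated libraries stood above both vehicle libraries, and 4 of them passed the control guides' 95th percentile; HGLibB_41248, at 1.80, fell just short of its 1.81. The sixth, HGLibA_48587, was sparse, with 11.1 and 40.8 with lapatinib, against 36.3 and 46.7 with vehicle.

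The same RASA2 guides in OE19 lay at 0.461- to 1.46-fold. HGLibA_48588 had 207 and 94.7 normalized counts with lapatinib, against 107 and 98.7 with vehicle, and HGLibA_48586 had 176 and 196 with lapatinib, against 186 and 170.2 with vehicle. All 6 had overlapping groups in OE19, and the median log2 fold change was -0.20. Against baseline RASA2 had a median of 2.16 in N87 lapatinib cells (adjusted p = 0.630 by rank aggregation of edgeR p-values) and -0.16 in OE19.

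**Figure D2:**
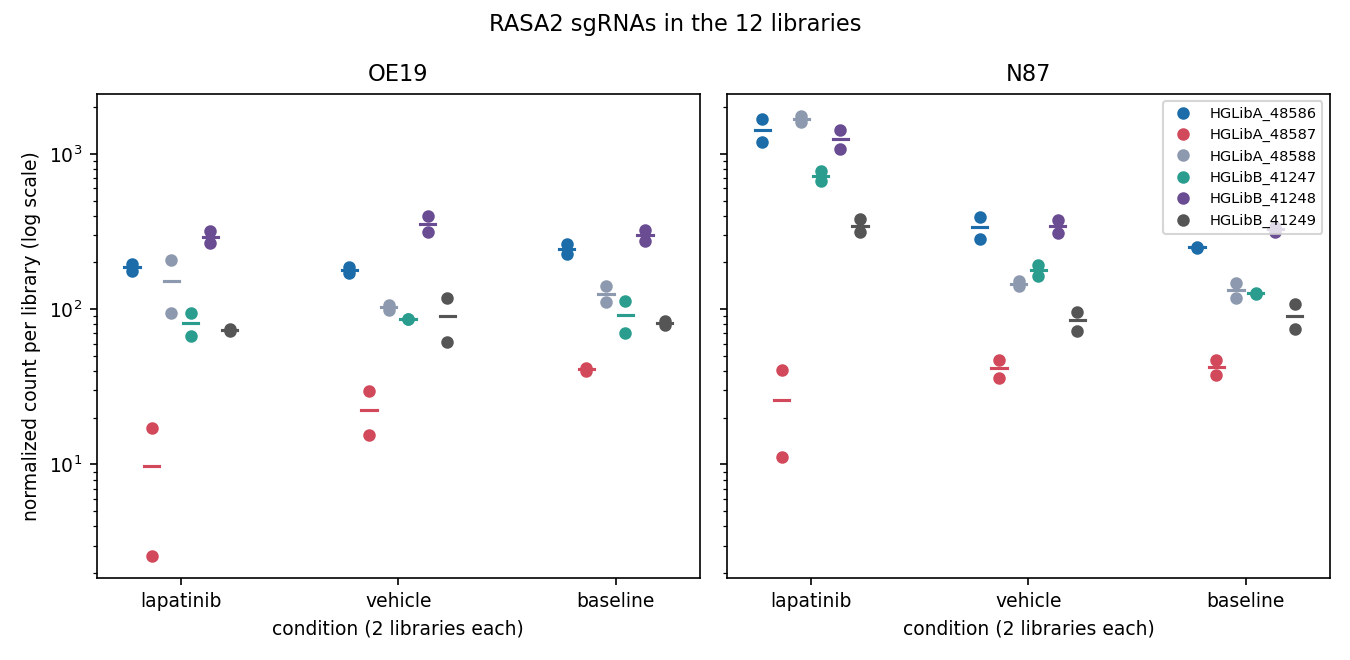
Normalized count (log axis) of each of the 6 RASA2 sgRNAs in the 12 libraries, by condition, in OE19 (left) and N87 (right); points are the 2 libraries of a condition and short bars their mean. In N87 5 guides are above their vehicle and baseline levels with lapatinib, led by HGLibA_48588 at 1592 and 1763, and in OE19 lapatinib and vehicle points overlap for all 6.

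No other RasGAP passed the gene test in either line. DAB2IP, a RasGAP that also binds signalling kinases, had 1 strongly enriched guide in OE19. HGLibB_12259 had 3128 and 1002 normalized counts with lapatinib, against 197 and 158 with vehicle, an 11.6-fold rise (log2 fold change 3.51 ± 0.56, edgeR adjusted p = 0.00824). This was as large as the NF1 guides' gains, but the other 5 DAB2IP guides lay at 1.03- to 1.40-fold and none passed, and the gene's adjusted p was 0.909 by rank aggregation of edgeR p-values. In N87 the same guide fell to 77.9 and 80.5 with lapatinib, against 141 and 244 with vehicle (edgeR adjusted p = 0.00212). In N87 4 DAB2IP guides were called lower and 1 higher, where 29.9% of all sgRNAs were called lower and 31.2% higher.

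RASAL2, another RasGAP of the DAB2IP family, had 2 guides above the control guides' 95th percentile in OE19. HGLibB_41262 had 956 and 417 normalized counts with lapatinib, against 236 and 260 with vehicle (2.76-fold, edgeR adjusted p = 0.0589). HGLibA_48601 had 749 and 343 with lapatinib, against 236 and 185 with vehicle (2.59-fold, edgeR adjusted p = 0.0678). Both had separate groups and neither reached the threshold, and the other 4 lay at 1.02- to 1.13-fold. At an unadjusted p under 0.05 the gene test had RASAL2 enriched in OE19 lapatinib cells over vehicle and over baseline. It did not pass after adjustment, and no share of all genes was counted at the unadjusted threshold. In N87 the same pair lay at 1.35- and 1.29-fold. Of the 6 guides 1 was called higher and 2 lower there, against 31.2% and 29.9% of all sgRNAs.

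RASA1, the RasGAP that docks on activated receptors, had no called guide in OE19, where its fold changes ran over 0.601 to 1.88. Its median log2 fold change of -0.38 was the lowest of the 9 genes in that line. In N87, where 31.2% of all sgRNAs were called higher and 29.9% lower, 3 RASA1 guides rose and 2 fell. The largest rise was that of HGLibB_41244, with 1410.2 and 1195 normalized counts with lapatinib, against 358 and 288 with vehicle. RASA3, a RasGAP related to RASA2, had 4 guides lower and 2 higher in N87, with a median of -1.54, the lowest of the 9 there. In OE19 its guides lay at 0.911- to 1.61-fold and none was called, the 4 guides that fell in N87 lying at 0.911 to 0.998 of vehicle.

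The SPRED genes, whose products recruit neurofibromin, had no called guide in OE19 and called guides in N87. SPRED1 had 3 guides higher and 2 lower in N87, where 31.2% of all sgRNAs were called higher and 29.9% lower. HGLibA_55079 had 2014 and 1971 normalized counts with lapatinib, against 206 and 252 with vehicle, an 8.66-fold rise. HGLibA_55077 had 322 and 264 with lapatinib, against 48.7 and 45.1 with vehicle, and HGLibB_47733 had 1112 and 897 with lapatinib, against 368 and 332 with vehicle. These 3 guides stood clear of vehicle in both libraries, while HGLibA_55078 and HGLibB_47734 fell to 0.449 and 0.446 of vehicle. Both falls and the rise of HGLibB_47733 lay within the control guides' 5th to 95th percentile. The SPRED1 median log2 fold change in N87 was 1.07 (adjusted p = 0.923 by rank aggregation of edgeR p-values) and in OE19 it was 0.19, with no guide called.

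SPRED2 had 3 guides higher and none lower in N87, HGLibB_47736 most, with 549 and 369 normalized counts with lapatinib, against 182 and 157 with vehicle. In OE19 3 SPRED2 guides were above the control guides' 95th percentile, at 1.74- to 2.06-fold, with edgeR adjusted p from 0.0871 to 0.319. LZTR1, the ubiquitin ligase adaptor, had no called guide in OE19 and 1 higher and 2 lower in N87. Over all sgRNAs in N87, 31.2% were called higher and 29.9% lower. HGLibA_36091 to LZTR1 had 631 and 572 in N87 with lapatinib, against 195 and 181 with vehicle. That rise lay within the control guides' 5th to 95th percentile. In OE19 it had 127 and 90.0 with lapatinib, against 215 and 178 with vehicle, and was not called (edgeR adjusted p = 0.169).

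Over the 9 genes together, 5 of 54 sgRNAs were called higher and 0 lower in OE19 with lapatinib over vehicle by edgeR, where 2.33% and 0.0795% of all sgRNAs were. At an unadjusted p under 0.05 these were 12 and 1, a count not made over all sgRNAs. DESeq2 called 7 and 0, against 3701 and 156 of 121969 over the table. Of the 5, 4 belonged to NF1 and 1 to DAB2IP. Leaving out a vehicle library left 1 library in that group. All calls among the 54 were then lost, and nearly all over the whole table. Leaving out lapatinib replicate 2 raised the calls both among the 54 and over the table. In N87 22 of 54 were called higher and 17 lower, where 31.2% of all sgRNAs were higher and 29.9% lower; over the table that is 38054 higher and 36396 lower, and 23130 higher and 54785 lower when libraries were scaled to total counts. The median log2 fold change of the 54 was 0.17 in OE19, against -0.02 for all sgRNAs and -0.14 for control guides, and 0.37 in N87, against -0.07 for all sgRNAs and 0.25 for control guides. Relative to the control guides, 11 of the 54 were above the 95th percentile and 2 below the 5th in OE19, and 8 above and 10 below in N87.

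**Figure D3:**
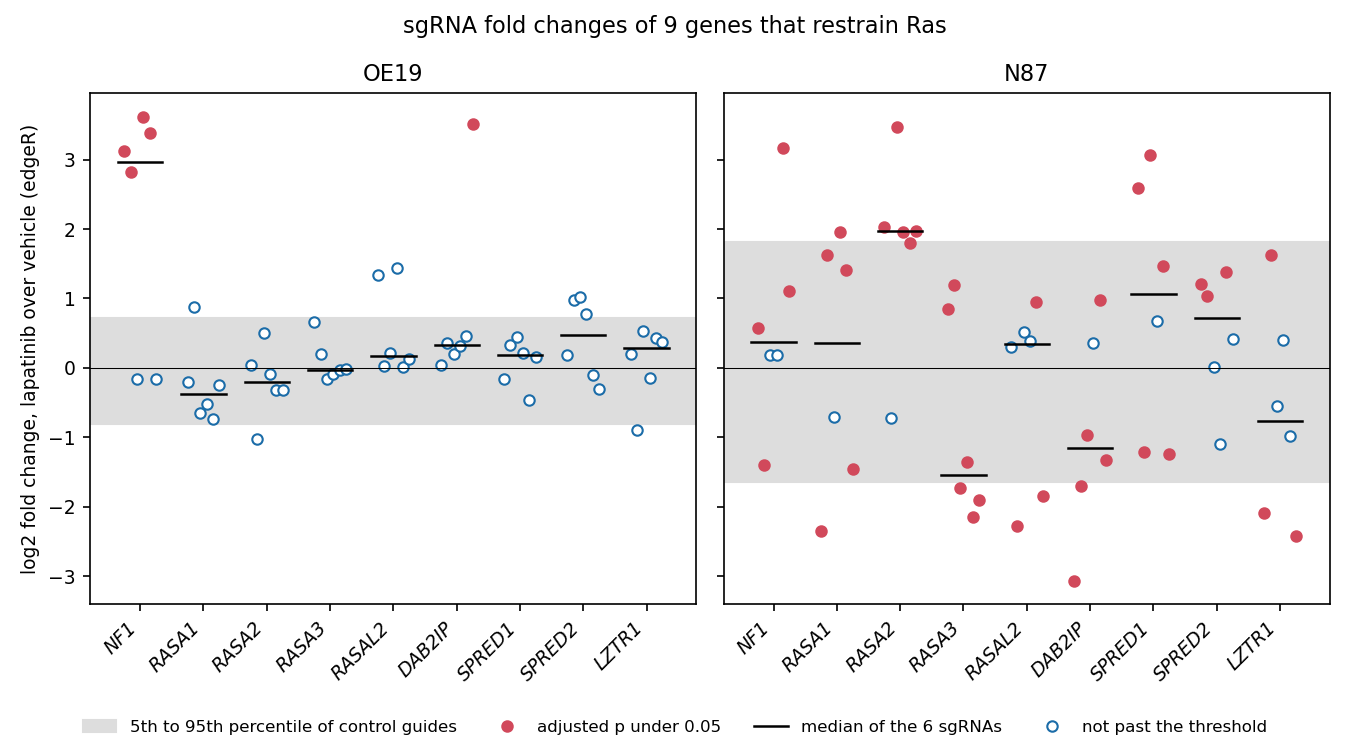
Log2 fold change of lapatinib over vehicle (edgeR) for the 6 sgRNAs of each of the 9 genes in OE19 (left) and N87 (right); filled points passed an adjusted p of 0.05, black bars are medians and the grey band spans the control guides' 5th to 95th percentile. NF1 stands out in OE19 with 4 guides from 2.82 to 3.62 and 1 DAB2IP guide is at 3.51; RASA2 has the highest median in N87, 1.97, against a control band that reaches 1.81.

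Most of the 9 genes sat slightly above baseline in cells grown for 14 days without drug, but none passed. With vehicle over baseline the gene medians ran over -0.19 to 0.26 in OE19, positive for 7 of 9 genes, and over -0.02 to 0.28 in N87, positive for 8 of 9. Among the 54 sgRNAs edgeR and DESeq2 called 0 in both lines; by edgeR 0.904% of all sgRNAs were called in OE19 and 0.0399% in N87. In both lines, leaving out a vehicle library left 1 library in that group. Calls then rose over the whole table as well as among the 54. At an unadjusted p under 0.05, 1 sgRNA was higher and 2 lower in OE19, and 11 were higher and 0 lower in N87. These were counted among the 54 only, so no share of the table stands beside them. The control guides' own medians were 0.19 in OE19 and 0.09 in N87, so in OE19 the members' median of 0.14 was no higher than theirs.

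The gene test on vehicle over baseline called none of the 9 genes in either line, by edgeR or DESeq2 p-values, while 1.53% of all genes passed in OE19 and 2.4% in N87. At an unadjusted p under 0.05 RASA1 was enriched in OE19, and NF1, RASA2, SPRED1, SPRED2 and LZTR1 were enriched in N87. The share of all genes under that unadjusted threshold was not counted, so these names have no background beside them. NF1 had the largest N87 median, 0.28, with an adjusted p of 0.188. HGLibB_32715 to NF1 had 308 and 337 normalized counts with vehicle, against 214 and 208 at baseline, and HGLibA_40045 had 303 and 443 with vehicle, against 250.5 and 279 at baseline. The NF1 result varied with the library used: without N87 vehicle replicate 1 its median was 0.51 and it passed (adjusted p = 0.00616), and without N87 vehicle replicate 2 its median was 0.04 (adjusted p = 0.925).

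In N87 lapatinib-treated over baseline cells, 30 of 54 member sgRNAs were called higher and 15 lower, where 33.7% of all sgRNAs were higher and 33.6% lower. The balance depended on scaling: with libraries scaled to total counts 18 members were higher and 20 lower, and over all sgRNAs 25485 and 60429, against 41255 and 41190. Without baseline replicate 1 the members' counts were 21 higher and 8 lower, and without baseline replicate 2 they were 22 and 9. Of the control guides, 43.3% were called higher and 16% lower. The gene test called none of the 9 by edgeR or DESeq2 p-values, with 0.134% of all genes called in either direction. At an unadjusted p under 0.05 NF1, RASA2 and SPRED1 were enriched and RASAL2 depleted. No share of all genes was counted at that threshold.

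The effect of lapatinib on these guides was compared directly between the lines as the effect in OE19 minus that in N87, with an interaction term over 8 libraries. The lines had also received different doses, so line and dose cannot be told apart. Of 54 sgRNAs, 17 had a higher effect in OE19 and 15 a lower one, where 20.7% and 20.5% of all sgRNAs did; among control guides 9.05% were higher and 27.2% lower. Over all sgRNAs 25288 were higher and 25070 lower, and 36838 and 16509 when libraries were scaled on the control guides. For NF1, 3 guides had a higher effect in OE19 and 1 a lower one: HGLibA_40046 by 4.24, HGLibB_32714 by 3.46 and HGLibA_40045 by 2.58 on the log2 scale, against -1.24 for HGLibB_32716. HGLibB_32715, enriched in both lines, was not called.

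For RASA2, 5 guides had a lower effect in OE19 than in N87 and none a higher one, with log2 differences from -2.96 to -1.96. For DAB2IP, 4 guides had a higher effect in OE19 and none a lower one, the most being HGLibB_12259 at 4.87. RASA3 had 3 higher and 1 lower, and SPRED1 2 higher and 3 lower. At the gene level no member passed by edgeR, DESeq2 likewise called 0, and 0.0191% of all genes passed in either direction. The medians were 1.41 for NF1 (adjusted p = 0.473) and -2.05 for RASA2 (adjusted p = 0.655). At an unadjusted p under 0.05 NF1 and DAB2IP had a higher effect in OE19 and RASA2 and SPRED1 a lower one. These names have no share of all genes beside them, as none was counted.

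**Figure D4:**
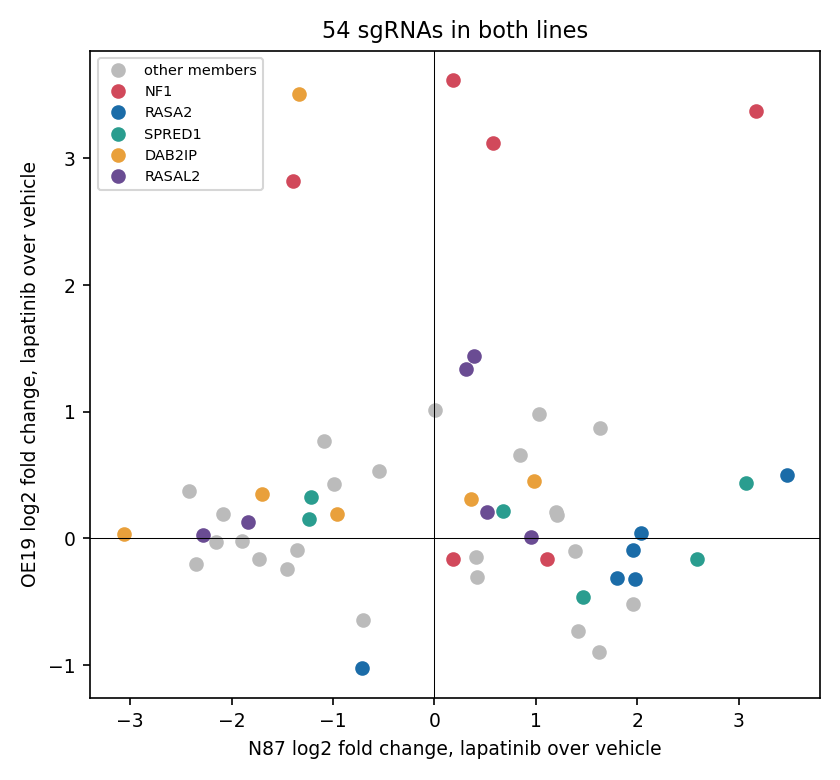
Log2 fold change of lapatinib over vehicle for each of the 54 sgRNAs in OE19 (vertical axis) and N87 (horizontal axis). Most NF1 guides and 1 DAB2IP guide occupy the upper part, and most RASA2 and SPRED1 guides the right side, but not all guides of these genes do. Only HGLibB_32715 to NF1 is above 2 on both axes, at 3.38 in OE19 and 3.17 in N87.

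NF1 lies on chromosome 17 of GRCh37 from 29421945 to 29709134 on the forward strand, and 3 other genes, OMG, EVI2B and EVI2A, lie inside it on the opposite strand. In GENCODE all 3 are within intron 36 of the canonical NF1 transcript, which has 58 exons. Their sgRNAs are aimed at genes that sit in an NF1 intron; the cut sites themselves were not analysed here. OMG encodes a myelin glycoprotein of oligodendrocytes, and EVI2A and EVI2B encode membrane proteins.

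OMG sgRNAs were enriched in OE19 lapatinib cells over baseline, with a median of 1.17 on the log2 scale and adjusted p = 1.33e-05 by rank aggregation of edgeR p-values. All 6 OMG guides were above vehicle in both treated libraries, at 1.38- to 3.18-fold, a smaller and more even gain than that of NF1. HGLibA_41675 had 398 and 323 normalized counts with lapatinib, against 122 and 103 with vehicle, and 98.4 and 109.7 at baseline. HGLibB_34341 had 1005 and 566 with lapatinib, against 358 and 240 with vehicle, and 243 and 222 at baseline. Over vehicle the OMG median was 0.95 and the gene test did not pass (adjusted p = 0.160). The call against baseline was lost without lapatinib replicate 1 or without lapatinib replicate 2, each of which left 1 library in that group. In N87 the OMG guides split, 2 higher and 2 lower with lapatinib over vehicle, with a median of -0.44. The shares of all sgRNAs there were 31.2% higher and 29.9% lower.

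EVI2A had 2 guides called higher in OE19, where 2.33% of all sgRNAs were. HGLibA_16687 had 904 and 362 normalized counts with lapatinib, against 13.3 and 23.8 with vehicle and 27.0 and 21.8 at baseline, a 32.4-fold difference over vehicle from a rare guide (18 and 21 reads in the vehicle libraries). In N87 the same guide was at 0 and 6.01 with lapatinib, against 12.4 and 20.9 with vehicle. HGLibA_16686 had 512 and 354 in OE19 with lapatinib, against 198 and 178 with vehicle. The other 4 EVI2A guides lay at 0.834- to 1.16-fold, and the gene's adjusted p was 0.185. EVI2B had a median of 0.76 in OE19 with no guide called (gene adjusted p = 0.899). Whether the guides to the nested genes act through NF1 was not tested.

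**Figure D5:**
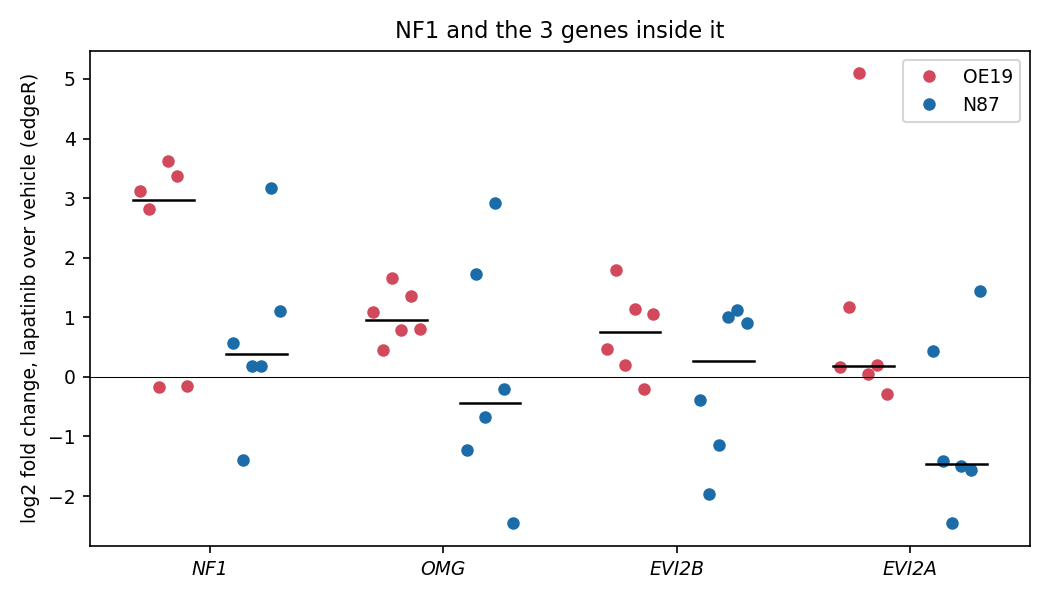
Log2 fold change of lapatinib over vehicle (edgeR) for the 6 sgRNAs of NF1 and of each of the 3 genes inside it, in OE19 (red, left) and N87 (blue, right), with black bars at the medians. In OE19 all 6 OMG guides are above 0 around a median of 0.95, and 1 EVI2A guide is at 5.10; in N87 the guides of each gene lie on both sides of 0.

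Other genes of the Ras cycle did not pass. Among 6 further RasGAP and SPRED genes, which included RASAL1, RASAL3, RASA4, RASA4B and SPRED3, 0 passed the gene test in any comparison; RASA4 and RASA4B are near-identical copies, so their guides cannot be assigned with certainty. In OE19 lapatinib over vehicle, 2 of their 36 sgRNAs were called higher and 0 lower, both of RASAL3, which ranked first in the list (adjusted p = 0.789 by rank aggregation of edgeR p-values), with RASA4 next (adjusted p = 1). In N87 5 of the 36 were higher and 15 lower. Of all sgRNAs 31.2% were called higher and 29.9% lower in N87, and 2.33% and 0.0795% in OE19. RASAL3 had an adjusted p of 0.965 in N87 by rank aggregation of edgeR p-values. All 6 gene medians there were below 0, between -2.10 and -0.24. Among 8 exchange factors that load Ras with GTP (SOS1, SOS2, RASGRP1 to RASGRP4, RASGRF1 and RASGRF2), 0 genes passed in any comparison. In OE19 0 of 47 of their sgRNAs were called, RASGRP1 and SOS2 ranked first (adjusted p = 1 for both by rank aggregation of edgeR p-values), and in N87 17 of 48 were higher and 19 lower, with SOS1 (adjusted p = 0.860) and RASGRF2 (0.947) first. Gene medians of the exchange factors lay between -0.11 and 0.52 in OE19, against 2.97 for NF1.

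The genes whose pattern was most like that of NF1 were found over the 8 lapatinib and vehicle libraries, among 20796 other genes with 4 or more sgRNAs, by the root mean square difference of their log2 levels relative to baseline. NF1 averaged 3.14 in OE19 with lapatinib and 0.21 in OE19 with vehicle, and 0.81 in N87 with lapatinib and 0.29 in N87 with vehicle. Closest was SLC30A1, a zinc exporter, with a difference of 0.53, followed by TGFBR2, a TGF-beta receptor, with 0.60, BAX, which permeabilizes mitochondria in apoptosis, with 0.66, and BMF, a pro-apoptotic BH3-only protein, with 0.87. TGFBR2 averaged 2.19 in OE19 with lapatinib and 0.15 with vehicle, and 0.34 in N87 with lapatinib and 0.04 with vehicle. None of the other 8 genes that restrain Ras was among the 5 closest.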

How the data were processed

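The deposited table holds raw read counts per sgRNA for 12 libraries, 1 column each. Per the methods and the submitters' processing notes, the authors trimmed reads with custom scripts, checked them with FastQC 0.11.5, aligned them to the guide library with Bowtie (Bowtie2 2.3.2 in the notes) allowing fewer than 2 mismatches and merged the counts; MAGeCK 0.5.6 is also named there. Counts of reads include PCR copies. Here, edgeR 4.0.16 (R 4.3.3, TMM factors, quasi-likelihood test) was fitted to the libraries of the conditions compared, on sgRNAs with at least 40 counts over 4 libraries (80 over 8 for the difference between lines), without a replicate block. Genes with 2 or more tested sgRNAs were tested in each direction by robust rank aggregation over ranks below 0.05 with the exact distribution of the score. Folds of normalized counts used a pseudocount of 1. Scripts were tested on simulated data. Python 3.11.15 was used for tables and positions came from GENCODE on GRCh37.

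All 9 genes were accounted for. By rule, a gene was described in full where its gene test passed in any comparison or at least 3 of its sgRNAs passed in the same direction in OE19, which gave NF1; from other lists, genes that passed and the 2 of lowest p were named, and the 5 genes most like NF1 were sought; 1 gene of these 5 and 1 of the other lists are not reported here. The members and lists were chosen with earlier results of these data known. Alternatives were other scalings, no filter, DESeq2 1.42.0, another dispersion prior, a replicate block, a wider rank limit of 0.25, other pseudocounts and leaving out each library.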

Additional observations from a re-analysis of the deposited data

Results flagged for a closer look

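The sgRNAs below are all those of the 9 genes (17 higher and 15 lower) and of the 3 genes inside NF1 whose lapatinib effect differed between OE19 and N87 by the interaction test (edgeR, adjusted p under 0.05). The values are log2 differences, the effect in OE19 minus that in N87, and the lines had received different doses. Differences of this kind were common in the table, at 20.7% higher and 20.5% lower over all sgRNAs.

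For NF1 the differences were 2.58 for HGLibA_40045, 4.24 for HGLibA_40046, 3.46 for HGLibB_32714 and -1.24 for HGLibB_32716, so guides to the same gene differed in both directions. For RASA2 all ran one way, at -1.96 for HGLibA_48586, -2.96 for HGLibA_48588, -2.02 for HGLibB_41247, -2.08 for HGLibB_41248 and -2.27 for HGLibB_41249. DAB2IP ran the other way, at 4.87 for HGLibB_12259, 3.12 for HGLibA_12270, 2.08 for HGLibA_12271 and 1.18 for HGLibA_12272. RASA1 had 2.16 for HGLibA_48583, -2.45 for HGLibB_41244 and -2.12 for HGLibB_41245. RASA3 had -0.97 for HGLibA_48590, 1.59 for HGLibA_48591, 2.15 for HGLibB_41251 and 1.90 for HGLibB_41252, and RASAL2 had 2.33 for HGLibA_48602.

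For SPRED1 the differences were -2.73 for HGLibA_55077, 1.57 for HGLibA_55078, -2.60 for HGLibA_55079, -1.90 for HGLibB_47733 and 1.42 for HGLibB_47734. SPRED2 had -0.999 for HGLibA_55080, 1.04 for HGLibA_55082 and -1.45 for HGLibB_47736. LZTR1 had 2.31 for HGLibA_36090, -2.50 for HGLibA_36091 and 2.81 for HGLibB_28763.

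Among the genes inside NF1, OMG had 2.33 for HGLibA_41673, -1.26 for HGLibA_41674, 2.36 for HGLibA_41675, -2.10 for HGLibB_34340, 1.59 for HGLibB_34341 and 3.29 for HGLibB_34342. EVI2A had 7.57 for HGLibA_16687, which had few reads in N87, 2.61 for HGLibA_16686, 1.78 for HGLibB_16664 and -1.69 for HGLibB_16665, and EVI2B had 3.77 for HGLibA_16689.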

How the results depend on the processing

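Counts of called member genes were followed for 14 results under the alternatives, and moved only where 1 library had been left out. Most of these results had a count of 0 in the main fit, and a 0 that stays 0 says little about stability. The exceptions were the enriched members in OE19 lapatinib against vehicle and against baseline. Leaving out single libraries, the count of enriched members ranged over 0 to 1 for OE19 lapatinib against vehicle, 0 to 1 for OE19 lapatinib against baseline and 0 to 1 for N87 vehicle against baseline, the gene concerned being NF1 each time. No called value changed sign. With a replicate block, NF1 kept its calls in OE19 (rank aggregation of edgeR p-values, adjusted p = 0.00877 against vehicle and 0.00881 against baseline). It stayed just short in N87 vehicle against baseline (0.0508). Under the block 9 of the 54 member sgRNAs, 4 of them of NF1, were called higher against baseline in OE19, and 0 without it. Over all 122367 sgRNAs these numbers were 5507 and 1. In N87 vehicle against baseline the block gave 3 member sgRNAs higher, 2 of them of NF1, where there were 0 without it. Over all 122948 sgRNAs 322 were higher with the block and 0 without. Whether the replicate numbers pair the libraries is not settled by the labels: the replicate difference correlated between conditions at 0.0323 to 0.0746 for 5 of the 6 pairs of conditions and at 0.238 for N87 vehicle and baseline. Over the alternatives that kept every library the adjusted p of NF1 in OE19 against vehicle was 0.000932 to 0.00877. For RASA2 in N87 it was 0.205 to 0.988 over all alternatives, and it never passed. Over all genes, those enriched in OE19 numbered 20, against 40 with the wider rank limit and 6 to 14 with a library left out. Scaling to total counts moved the median of all sgRNAs to -0.59 in N87 and -0.46 in OE19, and changed the N87 split to 23130 higher and 54785 lower, against 38054 and 36396. In OE19 2837 sgRNAs were higher, against 1703 with total counts, 9 without vehicle replicate 1, 47 without vehicle replicate 2, 5345 without lapatinib replicate 1 and 10389 without lapatinib replicate 2. OMG in OE19 against vehicle passed with the wider rank limit (adjusted p = 0.0229). The OE19 lapatinib libraries were the shallowest, which limits what can be seen for rare guides.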
